A study of Homo sapiens with 15 samples.

Results

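The 10 integrin subunits described here are the alpha chains ITGA1, ITGA2, ITGA3, ITGA4, ITGA5, ITGA6 and ITGAV and the beta chains ITGB1, ITGB5 and ITGB8. They were taken by gene symbol from a table of ribosome footprints with 55773 gene names, and all 10 had values in all 15 libraries. Ribosome profiling sequences the short mRNA fragments that translating ribosomes shield from nuclease, so a gene's value follows both how much of its mRNA there is and how heavily that mRNA is translated. No values of mRNA alone were analysed here, so these 2 quantities could not be separated.

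All libraries came from HEK293, an established human embryonic kidney line. In the Flag/HA-ZC3H7A and Flag/HA-ZC3H7B groups, Flp-In T-REx cells carried the tagged zinc finger protein ZC3H7A or ZC3H7B under a doxycycline-inducible promoter. The Flag/HA-control group is labelled as overexpressing Flag/HA alone, and the labels give doxycycline at 1 µg/mL for 24 h for the tagged proteins and as the treatment of all 3 groups. The ZC3H7A/B-DD group is labelled as a ZC3H7A knockout with a short hairpin RNA against ZC3H7B, and its reference, Parental, as wild type with a control hairpin. Both were grown in puromycin at 5 µg/mL, released from it before collection, and lysed with cycloheximide at 100 µg/mL. Each group has 3 libraries. The Flag/HA samples are described as independent replicates and nothing is said of the other 6, so p-values there describe only how far these libraries scatter, a scatter that may be technical. Whether any line is a single clone is not given in the sources used here. The Flag/HA set and the other set were made with different lysis, kits and laboratories, so they were tested apart.

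Integrins are cell-surface receptors that join the extracellular matrix to the actin cytoskeleton. Each receptor is a pair of 1 alpha and 1 beta chain, which assemble in the endoplasmic reticulum before export. ITGB1 is the partner of many alpha chains, including all 7 measured here, and ITGB5 and ITGB8 pair with ITGAV. The alpha chain sets what is bound: ITGA1 and ITGA2 form collagen receptors, ITGA3 and ITGA6 laminin receptors, ITGA5 the classical fibronectin receptor, ITGA4 a receptor for VCAM1 and fibronectin, and ITGAV receptors for vitronectin, fibronectin and latent TGF-beta. ZC3H7A and ZC3H7B are related RNA-binding zinc finger proteins, and the series title frames them as regulators of translation and mRNA stability that depend on codons.

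Because codon content is the axis the study names, the coding sequence of each subunit is shown around a landmark that alpha or beta chains share, just inside the plasma membrane. For alpha chains this is the conserved Phe-Phe-Lys-Arg motif, which starts at the ninth codon of each window, and for ITGB1 and ITGB5 it is the stretch that starts with His-Asp-Arg, also at the ninth codon. Capitals mark an A or T in the third base of a codon. A search for the beta stretch found no match in ITGB8, so no window is given for it.
ITGA1: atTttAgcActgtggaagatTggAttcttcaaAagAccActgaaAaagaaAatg
ITGA2: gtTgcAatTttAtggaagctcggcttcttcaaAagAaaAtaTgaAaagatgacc
ITGA4: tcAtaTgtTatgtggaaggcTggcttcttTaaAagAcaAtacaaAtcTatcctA
ITGA6: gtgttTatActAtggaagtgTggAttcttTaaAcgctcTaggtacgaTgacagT
ITGAV: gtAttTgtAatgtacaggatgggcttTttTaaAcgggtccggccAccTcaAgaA
ITGA3: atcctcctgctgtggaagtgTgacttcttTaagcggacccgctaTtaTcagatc
ITGA5: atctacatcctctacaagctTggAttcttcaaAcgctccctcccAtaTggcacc
ITGB1: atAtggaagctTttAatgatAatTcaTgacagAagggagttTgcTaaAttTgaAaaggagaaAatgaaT
ITGB5: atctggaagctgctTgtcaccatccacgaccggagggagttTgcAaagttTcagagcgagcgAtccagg

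Of the 18 codons in an alpha window, 11 end in A or T in ITGA4, 10 in ITGA1, in ITGA6 and in ITGAV and 9 in ITGA2, against 5 in ITGA5 and 4 in ITGA3. The same contrast separates the beta chains. ITGB1 and ITGB5 encode the same 9 amino acids from the His onward, yet 6 of those codons end in A or T in ITGB1 and 3 in ITGB5, and over the 23 codons of the window the counts are 14 and 5. The sequences are the longest complete coding transcripts of GENCODE release 29 on GRCh38, read on the coding strand. The alpha windows run across the junction of the last 2 exons, so their coordinates include an intron. They lie at chr5:52947444-52952442 (+) in ITGA1, chr5:53090045-53090554 (+) in ITGA2, chr17:50087852-50089145 (+) in ITGA3 and chr2:181534918-181535467 (+) in ITGA4. Those of ITGA5, ITGA6 and ITGAV lie at chr12:54396341-54397382 (-), chr2:172498083-172504126 (+) and chr2:186676918-186677232 (+). The beta windows each lie within exon 14, at chr10:32908383-32908451 (-) in ITGB1 and chr3:124764406-124764474 (-) in ITGB5.

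Over whole coding sequences, without start and stop codons, the share of codons ending in A or T was 62.1% in ITGA1, 61.5% in ITGB1, 61.0% in ITGA2, 60.5% in ITGA4, 60.4% in ITGB8, 59.5% in ITGAV and 57.0% in ITGA6. It was 32.2% in ITGA5, 30.2% in ITGB5 and 24.0% in ITGA3, and the median over 12861 tested genes with a coding sequence was 40.9%. The 10 genes therefore fall into a group of 7 well above that median and a group of 3 below it. Transcript choice matters for ITGA4, whose other complete coding transcript has 38.1%. The genes themselves span chr5:52787896-52959210 (ITGA1), chr5:52989326-53094779 (ITGA2), chr17:50055968-50090481 (ITGA3), chr2:181457202-181536187 (ITGA4), chr12:54395261-54419460 (ITGA5), chr2:172427354-172506282 (ITGA6), chr2:186590065-186680901 (ITGAV), chr10:32900319-33005792 (ITGB1), chr3:124761948-124901418 (ITGB5) and chr7:20330702-20415754 (ITGB8).

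Assigned reads per library were 24703005 to 25922138 in Flag/HA-ZC3H7A, 22661812 to 25939425 in Flag/HA-ZC3H7B, 28261810 to 29515572 in Flag/HA-control, 20777204 to 42680589 in ZC3H7A/B-DD and 32955833 to 39064072 in Parental. Each tagged gene was high in the line labelled for it. ZC3H7A averaged 38044 ± 562 normalized counts in Flag/HA-ZC3H7A, against 6547 ± 52.6 in Flag/HA-control, and ZC3H7B averaged 27885 ± 927 in Flag/HA-ZC3H7B, against 2152 ± 71.8 in Flag/HA-control (SD, n = 3 each). The gene that was not tagged also changed in each line: ZC3H7B averaged 2820 ± 162 in Flag/HA-ZC3H7A, a log2 change of 0.39 (limma adjusted p = 2.44e-07), and ZC3H7A averaged 4762 ± 80.6 in Flag/HA-ZC3H7B, a log2 change of -0.46 (adjusted p = 1.25e-09). In the ZC3H7A/B-DD libraries neither gene was lower: ZC3H7A had 7116, 1890 and 5066 normalized counts, against 1885, 1820 and 2311 in Parental, and ZC3H7B had 3948, 2399 and 2969, against 2479, 2321 and 2609. The depletion is therefore not visible in these footprints, and the group is called the libraries labelled ZC3H7A/B-DD throughout. Between replicates, the chi-square of read counts over genes was 1.65 to 6.06 per degree of freedom within the Flag/HA groups, where counting error alone gives 1, and 8.72 to 87.9 in the other 2 groups. Parental replicate 3 stood apart from the other Parental libraries, at 87.9 and 64.6, so changes against Parental and the counts drawn from them are given with and without it. Among marker genes, EPCAM, an epithelial surface protein, averaged 6952 ± 409 normalized counts in Flag/HA-ZC3H7B and 8602 ± 386 in Flag/HA-control. It had 5368 to 5586 in Flag/HA-ZC3H7A, 2590 to 3042 in the libraries labelled ZC3H7A/B-DD and 4162 to 5556 in Parental. Summed fibroblast markers (10 genes) lay between 177 and 846 and summed blood cell markers (12 genes) between 195 and 832 normalized counts in every library.

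Divided by coding length, ITGB1 stood first in every group, and it supplied 94.0% of the footprints on the 3 beta chains in Flag/HA-ZC3H7A, 95.1% in Flag/HA-ZC3H7B, 95.8% in Flag/HA-control, 90.9% in the libraries labelled ZC3H7A/B-DD and 91.3% in Parental. In Flag/HA-control it averaged 10458 ± 112 normalized counts per kilobase, followed by ITGAV at 2833 ± 49.6, ITGA4 at 1418 ± 33.3 and ITGA6 at 994 ± 47.6. ITGA1 (589 ± 6.66) and ITGA2 (580.2 ± 17.8) overlapped, and below them came ITGA5 at 466 ± 14.5, ITGB5 at 384 ± 13.4, ITGA3 at 171 ± 1.15 and ITGB8 at 79.6 ± 8.56 per kilobase. The order in Flag/HA-ZC3H7A was the same, except that ITGA2 (488 ± 11.2) stood above ITGA1 (473 ± 24.3) with overlapping libraries. In Flag/HA-ZC3H7B, ITGA4 at 897 ± 47.5 per kilobase stood above ITGAV at 814 ± 11.2, with no overlap between their libraries. ITGA1 at 235 ± 11.6 dropped to a level that overlapped that of ITGB5 at 248 ± 2.56. In the libraries labelled ZC3H7A/B-DD, ITGA6 (658 ± 57.6) and ITGA4 (595 ± 42.0) overlapped, as did ITGA1 with ITGB5 and ITGB5 with ITGA2. In Parental, ITGA4 (858 ± 103), ITGA5 (788 ± 112) and ITGA6 (707 ± 119) formed a run in which neighbours overlapped. ITGB8, with the fewest footprints per kilobase of the 10, still had at least 113 reads in every library.

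**Figure D1:**
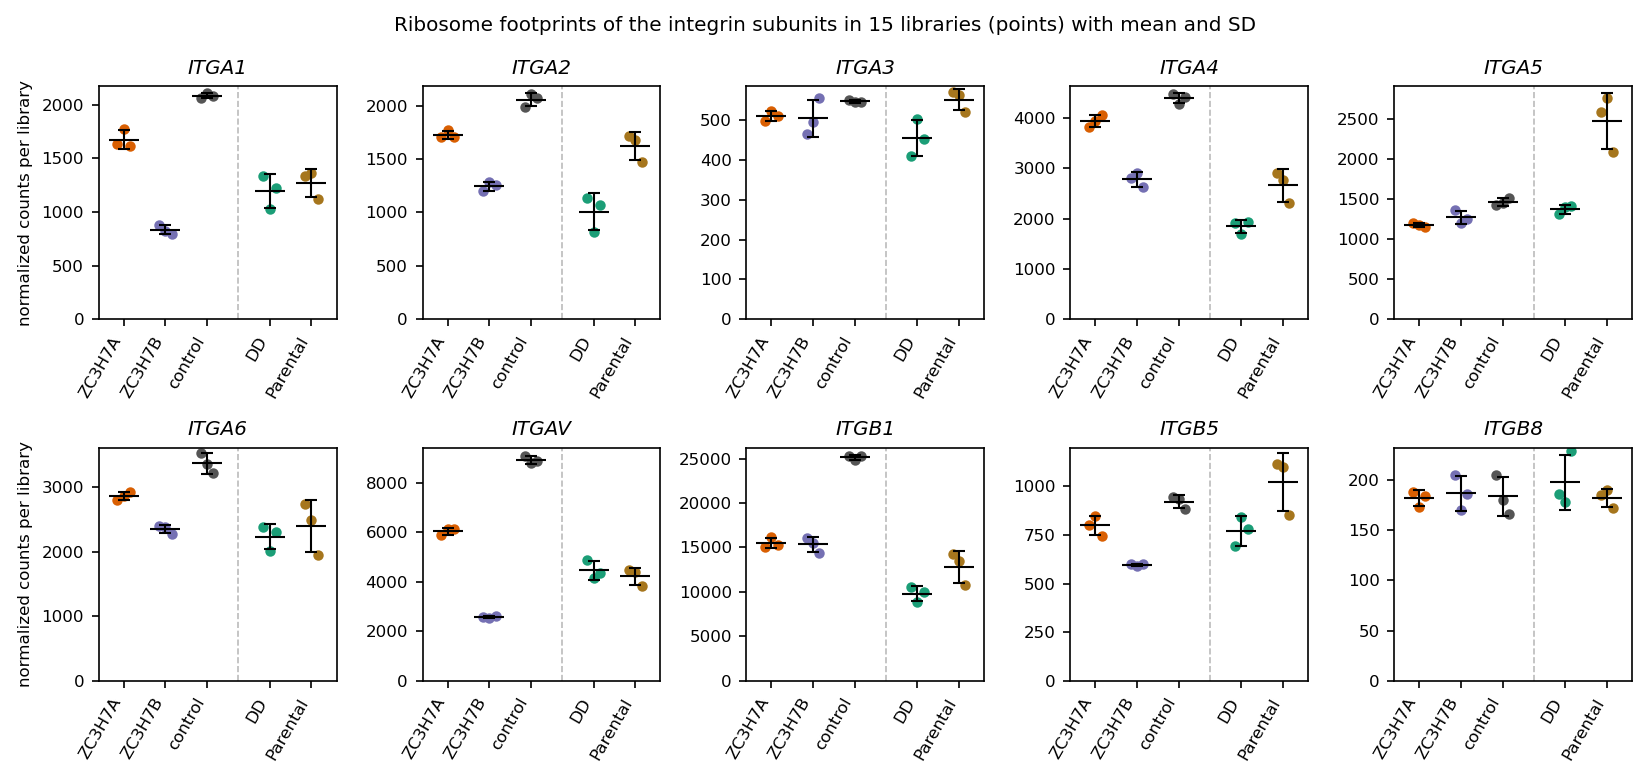
Normalized counts of the 10 integrin subunits (vertical axes, from 0) in each of the 15 libraries (points), with the mean and SD of the 3 libraries of a group, the Flag/HA groups left of the dashed line and the other 2 groups right of it. ITGAV is near 2562 in Flag/HA-ZC3H7B, against 8917 in Flag/HA-control, while ITGB8 lies between 166 and 229.5 in every library.

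Tagged ZC3H7A and tagged ZC3H7B were each set against Flag/HA-control, to ask how an excess of either protein changes what ribosomes translate. Both lines had fewer footprints on most integrin subunits. In Flag/HA-ZC3H7A, 8 of the 10 fell, where 28.2% of all genes were called lower, and in Flag/HA-ZC3H7B 8 fell, where 25.4% were. None was called higher in either line. The 10 subunits were chosen with earlier results of these data known, so these counts describe them and are no test of a group. The median log2 change of the 10 was -0.24 in Flag/HA-ZC3H7A and -0.65 in Flag/HA-ZC3H7B, beside medians of 0.02 and 0.04 over all 15599 genes tested. Tests are limma's on log2(value + 1) with Benjamini-Hochberg adjustment over all genes, called at an adjusted p under 0.05. All libraries of Flag/HA-ZC3H7A lay below all of Flag/HA-control for 9 subunits, where 31.5% of genes did so, and for Flag/HA-ZC3H7B this held for 8, where 29% of genes did so. Both comparisons use the same 3 control libraries. Marker sums moved with the same contrasts: the 10 epithelial markers summed to 7184 to 7651 in Flag/HA-ZC3H7A, 8937 to 9861 in Flag/HA-ZC3H7B and 11167 to 12046 in Flag/HA-control, with KRT14 at 0 in all 3 groups. The 10 fibroblast markers summed to 293 to 323, 229 to 262 and 177 to 211 in the same groups, and the 12 blood cell markers to 278 to 331, 359 to 474 and 649.9 to 832. Of the tested markers, 3 of 6 epithelial, 1 of 5 fibroblast and 2 of 5 blood cell genes fell in Flag/HA-ZC3H7A and 4, 1 and 2 in Flag/HA-ZC3H7B, and their part in the integrin result was not tested. Together the 10 subunits took 985 to 1024 reads per 1000000 assigned in Flag/HA-ZC3H7A, 799 to 822 in Flag/HA-ZC3H7B and 1369 to 1382 in Flag/HA-control. In a bulk library, fewer cells that translate a gene and fewer footprints per cell cannot be told apart.

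ITGB1, the common beta chain, was lower by nearly the same amount in both lines. It had 15055, 16147 and 15311 normalized counts in Flag/HA-ZC3H7A and 16096, 15533 and 14396 in Flag/HA-ZC3H7B, against 25304, 24851 and 25329 in Flag/HA-control. Every library of both overexpressing lines lay well below every control library, and the 2 lines overlapped each other. The log2 change was -0.70 ± 0.05 (SE) in Flag/HA-ZC3H7A (limma adjusted p = 1.25e-11) and -0.72 ± 0.05 in Flag/HA-ZC3H7B (adjusted p = 8.65e-12). The direct contrast of the 2 lines was 0.02, with a 95% interval from -0.08 to 0.11 (adjusted p = 0.828).

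ITGAV, the vitronectin-receptor alpha chain, fell the furthest of the 10 in Flag/HA-ZC3H7B. Its normalized counts were 5868, 6109.8 and 6136 in Flag/HA-ZC3H7A and 2567, 2524 and 2595 in Flag/HA-ZC3H7B, against 9091, 8792 and 8866 in Flag/HA-control. The 3 groups are fully separated, with Flag/HA-ZC3H7A between the other 2. The log2 change was -0.56 ± 0.04 in Flag/HA-ZC3H7A (adjusted p = 8.21e-11), so that it fell by 32.3%. In Flag/HA-ZC3H7B it was -1.80 ± 0.04 (adjusted p = 7.28e-20), so that it fell by 71.3%, and 107 of the 15599 genes tested had a lower log2 change in that comparison. ITGAV was 2.36 times as high in Flag/HA-ZC3H7A as in Flag/HA-ZC3H7B (log2 1.24 ± 0.04, adjusted p = 1.21e-16).

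The other beta chains that pair with ITGAV behaved differently from each other. ITGB5 had 803, 848 and 747 normalized counts in Flag/HA-ZC3H7A and 599, 589 and 599.9 in Flag/HA-ZC3H7B, against 948, 933 and 886 in Flag/HA-control. It fell by 0.21 on the log2 scale in Flag/HA-ZC3H7A (adjusted p = 0.0112) and by 0.63 in Flag/HA-ZC3H7B (adjusted p = 3.35e-08). ITGB8, which activates latent TGF-beta with ITGAV, had 189, 173 and 184 in Flag/HA-ZC3H7A and 205, 170.4 and 186 in Flag/HA-ZC3H7B, against 205, 181 and 166 in Flag/HA-control. Its libraries overlap in all 3 groups. Its log2 changes were -0.01 (95% interval -0.27 to 0.25) and 0.03 (-0.23 to 0.29), so a change of the size seen for ITGAV in either line lies outside its interval.

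The fibronectin receptor chain ITGA5 had 1204, 1181 and 1157 normalized counts in Flag/HA-ZC3H7A and 1362, 1205 and 1257 in Flag/HA-ZC3H7B, against 1434, 1449 and 1519.9 in Flag/HA-control. Both lines lay below the control in every library, with log2 changes of -0.31 ± 0.06 (adjusted p = 6.19e-05) and -0.20 ± 0.06 (adjusted p = 0.00443). ITGA5 is the only called subunit whose estimate was further from 0 in Flag/HA-ZC3H7A than in Flag/HA-ZC3H7B, though that contrast of -0.11 did not pass the test (adjusted p = 0.151).

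The collagen receptor chains ITGA1 and ITGA2 lie next to each other on chromosome 5. ITGA1 had 1634, 1774 and 1619 normalized counts in Flag/HA-ZC3H7A and 879, 822 and 799 in Flag/HA-ZC3H7B, against 2063, 2110.3 and 2083 in Flag/HA-control. The 3 groups did not overlap, and the change in Flag/HA-ZC3H7B (log2 -1.32 ± 0.06, adjusted p = 4.49e-15) exceeded that in Flag/HA-ZC3H7A (-0.32 ± 0.06, adjusted p = 4.04e-05). ITGA2 had 1703, 1774 and 1709 in Flag/HA-ZC3H7A and 1199.7, 1284 and 1258 in Flag/HA-ZC3H7B, against 1987, 2110.3 and 2074 in Flag/HA-control. It shows the same order of groups at smaller size, with log2 changes of -0.25 ± 0.05 (adjusted p = 2.35e-04) and -0.72 ± 0.05 (adjusted p = 4.64e-11). PELO, a ribosome rescue factor, shares 475 exon bases with ITGA1 on the same strand, so some of their reads may be exchanged. PELO itself changed by 0.21 (adjusted p = 0.00304) in Flag/HA-ZC3H7A and by 0.02 (adjusted p = 0.745) in Flag/HA-ZC3H7B, unlike ITGA1.

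Of the laminin receptor chains, ITGA6 fell and ITGA3 did not pass the test. ITGA6 had 2809, 2868 and 2933 normalized counts in Flag/HA-ZC3H7A and 2398, 2385 and 2276 in Flag/HA-ZC3H7B, against 3539, 3359 and 3217 in Flag/HA-control. The groups are separated, with log2 changes of -0.23 ± 0.05 (adjusted p = 2.47e-04) and -0.52 ± 0.05 (adjusted p = 3.38e-09). ITGA3 had 499, 523 and 511 in Flag/HA-ZC3H7A and 465, 495 and 556 in Flag/HA-ZC3H7B, against 552, 546 and 546 in Flag/HA-control. Its estimates were -0.10 (95% interval -0.26 to 0.06) and -0.12 (-0.28 to 0.04). ITGA4, the VCAM1 receptor chain, had 3818, 3933 and 4065 in Flag/HA-ZC3H7A and 2811, 2911 and 2621 in Flag/HA-ZC3H7B, against 4477, 4279 and 4429 in Flag/HA-control. It fell by 0.16 on the log2 scale in Flag/HA-ZC3H7A (adjusted p = 0.00678) and by 0.66 in Flag/HA-ZC3H7B (adjusted p = 4.99e-11).

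**Figure D2:**
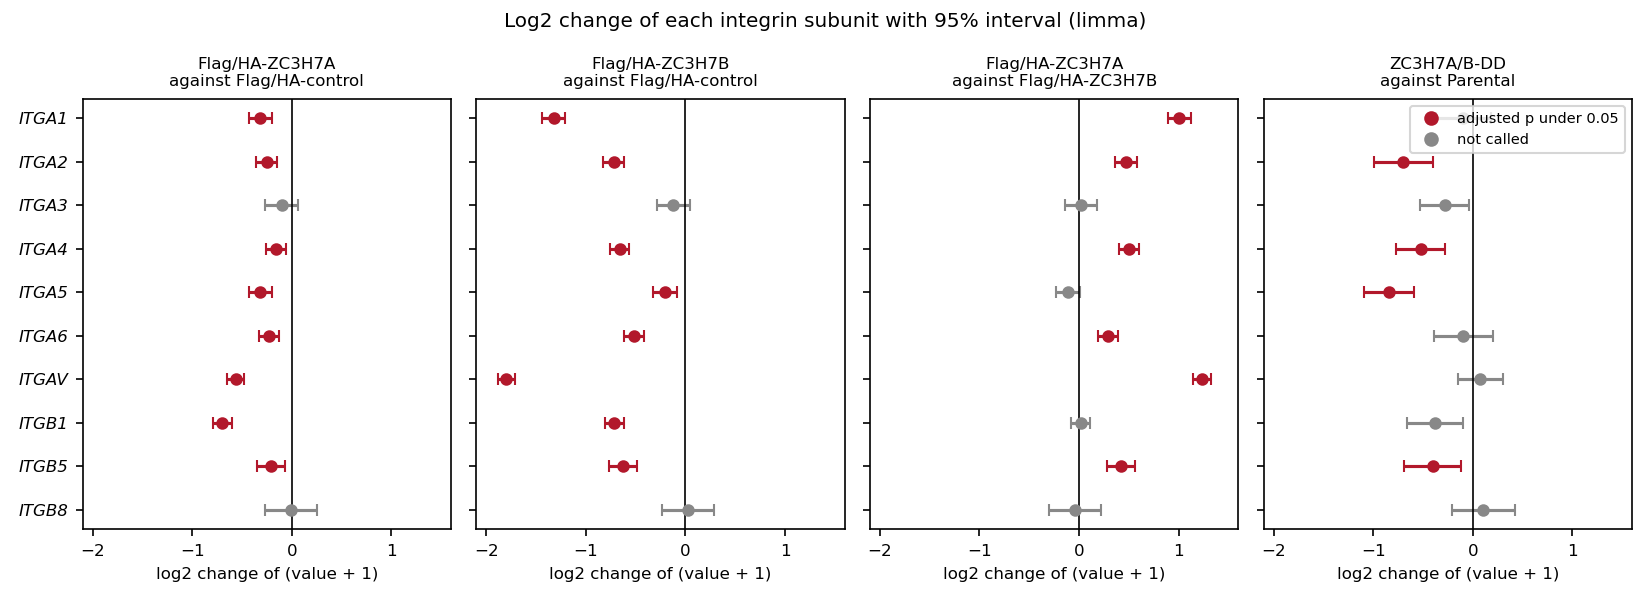
Log2 change of each subunit (points) with its 95% interval (bars) in the 4 comparisons, in red where the adjusted p was under 0.05 and in grey otherwise, with limma. ITGAV and ITGA1 stand out at -1.80 and -1.32 in Flag/HA-ZC3H7B against Flag/HA-control, and ITGB1 is at -0.70 and -0.72 in the 2 lines.

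Setting the overexpressing lines against each other tests where they differ. ITGAV, ITGA1, ITGA4, ITGA2, ITGB5 and ITGA6 were higher in Flag/HA-ZC3H7A than in Flag/HA-ZC3H7B, which makes 6 of 10, where 18.4% of all genes were called higher and 18.2% lower. Their log2 differences were 1.24, 1.01, 0.50, 0.47, 0.42 and 0.29, and the highest adjusted p among them was 4.01e-05 (limma). ITGB1, ITGA3, ITGA5 and ITGB8 did not pass, with estimates of 0.02, 0.02, -0.11 and -0.04. Groups did not overlap for the same 6 subunits in the higher direction, where 21.9% of genes did so, and for ITGA5 in the lower direction, where 21.9% did so too. The median of the 10 was 0.35, beside -0.01 over all genes.

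These unequal changes alter the balance of chains. The footprints of the 7 alpha chains per kilobase, summed and divided by those of the 3 beta chains, gave ratios of 0.810, 0.784 and 0.828 in Flag/HA-ZC3H7A, 0.511, 0.528 and 0.553 in Flag/HA-ZC3H7B and 0.650, 0.647 and 0.640 in Flag/HA-control. The lines lay on opposite sides of the control: alpha chains were higher relative to beta chains in Flag/HA-ZC3H7A (0.807 ± 0.022, against 0.646 ± 0.005 in Flag/HA-control) and lower in Flag/HA-ZC3H7B (0.531 ± 0.021). The share of ITGAV among alpha-chain footprints was 34.5%, 34.7% and 34.9% in Flag/HA-ZC3H7A and 22.7%, 22.4% and 23.6% in Flag/HA-ZC3H7B, against 40.4%, 40.0% and 40.1% in Flag/HA-control. Of the 7 alpha chains, ITGA4 took the largest share in Flag/HA-ZC3H7B, at 25.2 ± 1.03%, against 20.1 ± 0.308% in Flag/HA-control. Other alpha chains are not in these sums. Among them, ITGA8 averaged 2407 normalized counts in Flag/HA-ZC3H7A, 1381 in Flag/HA-ZC3H7B and 1586 in Flag/HA-control. How they would change the ratio and the shares was not tested. The exact two-sided permutation p was 0.1 for each of these ratio and share comparisons, the smallest that 3 against 3 libraries allow, so none can reach 0.05.

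**Figure D3:**
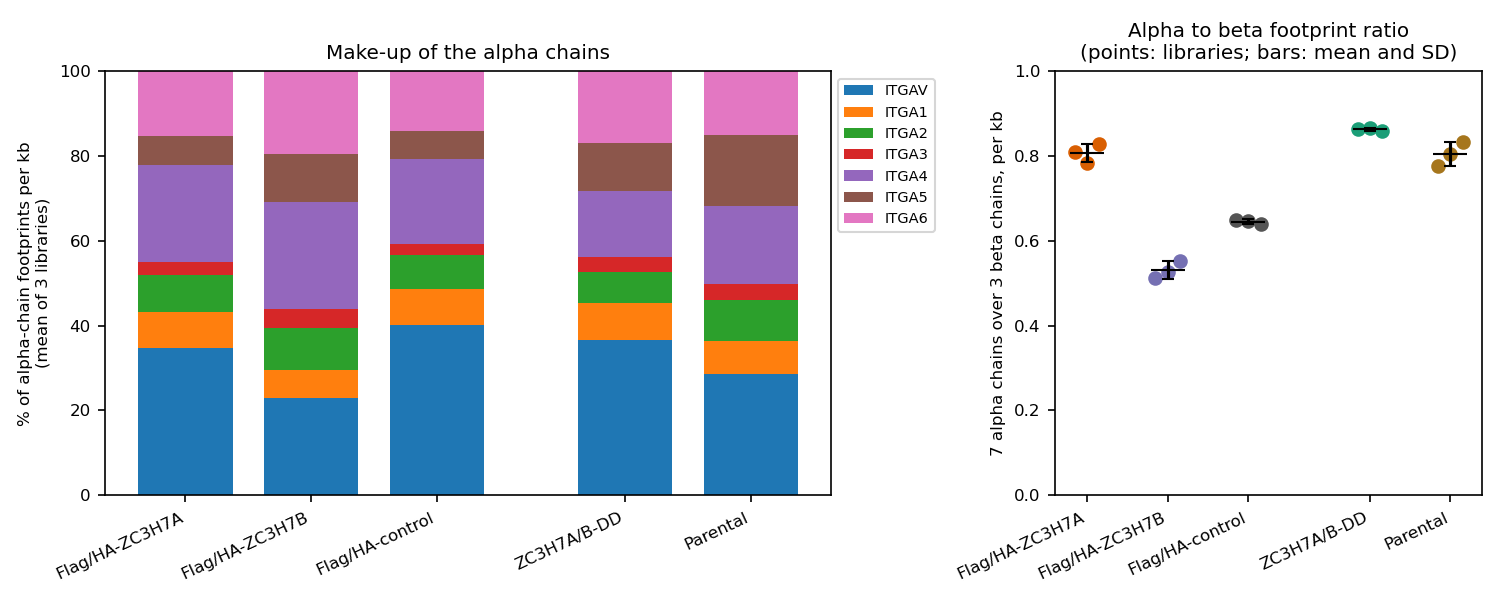
Left, mean share of each of the 7 alpha chains in their summed footprints per kilobase for each group (stacked bars, %). Right, ratio of alpha-chain to beta-chain footprints per kilobase in each library (points) with mean and SD. ITGAV shrinks to 22.9% in Flag/HA-ZC3H7B, against 40.2% in Flag/HA-control, and the ratio is 0.807 in Flag/HA-ZC3H7A, 0.531 in Flag/HA-ZC3H7B and 0.646 in Flag/HA-control.

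The libraries labelled ZC3H7A/B-DD were set against Parental, the comparison meant for loss of both proteins. ITGA5, ITGA2, ITGA4 and ITGB5 fell and no subunit rose, in libraries whose targeted genes were not lower. That makes 4 of 10 called lower, where 13.5% of all genes were called lower, and the libraries of the groups did not overlap for 6, where 21.2% of genes lay lower without overlap. Without Parental replicate 3, 5 of the 10 were called lower, where 17.4% of all genes were, and 7 lay lower without overlap, where 30.5% of genes did. Without any other single library 3 were called lower, where 6.78 to 11.4% of all genes were. The median log2 change of the 10 was -0.33, beside 0.02 over all 17092 genes tested, and -0.41 without Parental replicate 3.

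ITGA5 was the subunit that moved furthest. It had 1313, 1405 and 1414 normalized counts in the libraries labelled ZC3H7A/B-DD, against 2596, 2763 and 2089 in Parental. The groups are well apart, with a log2 change of -0.84 ± 0.11 (limma adjusted p = 0.00110), and -0.96 without Parental replicate 3 (adjusted p = 5.33e-05). ITGA2 had 1140.3, 814 and 1072, against 1715, 1675 and 1476 in Parental, a log2 change of -0.70 ± 0.13 (adjusted p = 0.00609) that was -0.76 without Parental replicate 3. ITGA4 had 1910.3, 1695 and 1929, against 2913, 2764 and 2301 in Parental, a change of -0.52 ± 0.11 (adjusted p = 0.00876) that was -0.62 without that library. All 3 passed the test in each of the 18 alternative analyses.

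The beta chains were less certain. ITGB1 had 10560.4, 8894 and 9965 normalized counts in the libraries labelled ZC3H7A/B-DD, against 14278, 13435 and 10783 in Parental. All of its ZC3H7A/B-DD values lie below Parental, but the log2 change of -0.38 ± 0.12 missed the threshold (adjusted p = 0.0531), and without Parental replicate 3, the lowest Parental library, it was -0.50 with an adjusted p of 0.00274. ITGB5 had 692, 843 and 779, against 1117, 1101 and 852 in Parental. Its change of -0.40 ± 0.13 passed narrowly (adjusted p = 0.0486) and was -0.53 without Parental replicate 3 (adjusted p = 0.00412). Leaving out any other single library raised its adjusted p to between 0.0574 and 0.177. ITGB8 had 187, 178 and 229.5, against 185, 190.2 and 173 in Parental, a change of 0.11 with a 95% interval from -0.21 to 0.42, and 0.07 without Parental replicate 3.

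ITGAV and ITGA1, the subunits with the largest falls in Flag/HA-ZC3H7B, were not called in the libraries labelled ZC3H7A/B-DD. ITGAV had 4886, 4129 and 4346 normalized counts, against 4458, 4387 and 3829 in Parental, and ITGA1 had 1334, 1024 and 1224, against 1333, 1363 and 1118 in Parental. The groups overlap for both. Their log2 changes were 0.08 (95% interval -0.15 to 0.30) and -0.09 (-0.37 to 0.18). ITGA6 was at -0.09 (-0.39 to 0.20) and ITGA3 at -0.28 (-0.52 to -0.04, adjusted p = 0.0889). Without Parental replicate 3 the estimates were 0.0066 for ITGAV, -0.18 for ITGA1, -0.23 for ITGA6 and -0.32 for ITGA3, and none passed the test (lowest adjusted p = 0.0601). The share of ITGAV in the alpha footprints was 37.7%, 36.7% and 35.2% in the libraries labelled ZC3H7A/B-DD, against 28.2%, 28.3% and 29.7% in Parental, without overlap (exact permutation p = 0.1, the smallest possible). The alpha to beta ratio was 0.863 ± 0.004, against 0.805 ± 0.029 in Parental, also without overlap. Without Parental replicate 3, the Parental means were 28.2% for the share and 0.791 for the ratio. The 10 subunits took 747, 657 and 731 reads per 1000000 assigned in the libraries labelled ZC3H7A/B-DD, against 1009, 966 and 750 in Parental, where replicate 3 was again the lowest. KRT19, an epithelial keratin, moved with this contrast far more than any subunit, at 10.4 ± 4.61 normalized counts against 2325 ± 188 in Parental (log2 -7.77, and -7.71 without Parental replicate 3). Summed epithelial markers were 3571 to 3922, against 9592 to 9943 in Parental, with no marker of the 10 at 0 in every library of either group, and their part in the integrin result was not tested.

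Changes were then placed beside the last base of the codons. Among the 7 subunits with at least 50% of codons ending in A or T, the median log2 change was -0.25 in Flag/HA-ZC3H7A and -0.72 in Flag/HA-ZC3H7B. Among the 3 below 50% it was -0.21 and -0.20. Over all genes, the 4604 at or above 50% had medians of -0.12 in both lines, and the 8257 below it had 0.09 and 0.10. Of the 4604, 46.1% were called lower in Flag/HA-ZC3H7A and 45.2% in Flag/HA-ZC3H7B. Of the 8257, 23.2% and 19.3% were. Spearman's rho between the share and the change was -0.47 in Flag/HA-ZC3H7A and -0.60 in Flag/HA-ZC3H7B over the 10 subunits, and -0.26 and -0.29 over 12861 genes, given as descriptions because genes of a library share its depth and base composition. In the direct contrast of the 2 lines, rho was 0.33 over the 10 subunits and 0.0075 over the 12861 genes. The 2 subunit medians in Flag/HA-ZC3H7A, -0.25 and -0.21, lay close together. There were clear exceptions to an order by this share: ITGB8 at 60.4% did not pass the test in either line. ITGB5 at 30.2% fell by 0.63 in Flag/HA-ZC3H7B. Subunits with nearly the same share also differed widely, as ITGAV at 59.5% and ITGA4 at 60.5% had log2 changes of -1.80 and -0.66 in Flag/HA-ZC3H7B. In the libraries labelled ZC3H7A/B-DD the medians were -0.09 for the 7 and -0.40 for the 3, and over all genes 0.06 and -0.03. These were -0.23 and -0.53 without Parental replicate 3, and over all genes 0.05 and -0.06. With all libraries of that comparison, Spearman's rho was 0.04 over the 10 subunits and 0.10 over 13028 genes.

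**Figure D4:**
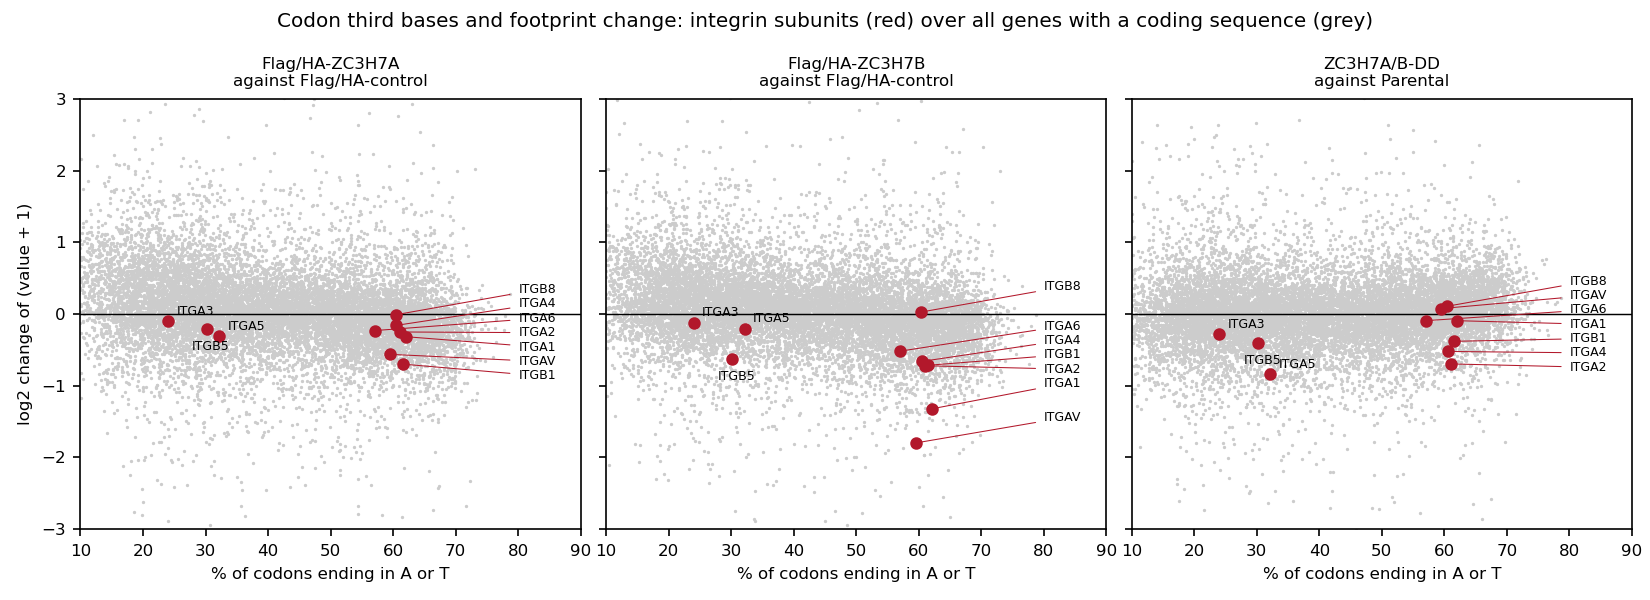
Share of codons ending in A or T (horizontal axis, %) against log2 change (vertical axis) for the 10 subunits (red, named) over all tested genes with a coding sequence (grey), in 3 comparisons. Genes beyond the axis limits are not drawn. In Flag/HA-ZC3H7B, ITGAV and ITGA1 lie at -1.80 and -1.32 among genes with a high share, while ITGB8, with 60.4%, lies at 0.03.

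The other 16 integrin subunits were mostly scarce, and 12 could be tested in the Flag/HA set. In Flag/HA-ZC3H7A, 3 rose and 3 fell, shares close to the 29.2% and 28.2% of all genes. ITGA9, a tenascin receptor chain, rose to 244 ± 18.2 normalized counts in Flag/HA-ZC3H7A, against 72.7 ± 11.6 in Flag/HA-control (log2 1.74), and was at 73.0 ± 8.86 in Flag/HA-ZC3H7B. ITGA8, a partner of ITGB1 known from kidney development, rose to 2407 ± 91.0 in Flag/HA-ZC3H7A, against 1586 ± 47.6 in Flag/HA-control (log2 0.60), and fell to 1381 ± 38.1 in Flag/HA-ZC3H7B (log2 -0.20). ITGAE, the epithelial-homing chain of lymphocytes, was higher in both lines, at 1530 ± 186 and 1557 ± 105, against 1089 ± 80.7 in Flag/HA-control. ITGB3, another partner of ITGAV, fell to 36.7 ± 6.06 in Flag/HA-ZC3H7A and 54.1 ± 14.0 in Flag/HA-ZC3H7B, against 106 ± 6.93 in Flag/HA-control. In Flag/HA-ZC3H7B, 2 of the 12 rose and 5 fell, where 28.9% of all genes rose and 25.4% fell. In the libraries labelled ZC3H7A/B-DD 1 of 9 rose and 2 fell, where 11% and 13.5% of all genes did, and without Parental replicate 3 the counts were 1 and 4, where 15.7% and 17.4% did. ITGAE was at 785 ± 116, against 1459 ± 119 in Parental (log2 -0.90, and -0.96 without Parental replicate 3). Leaving out any other single library, 0 to 1 of the 9 rose and 1 to 3 fell. Of all genes, 4.54 to 7.79% rose and 6.78 to 11.4% fell in those fits.

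The listed genes that encode the ligands of these receptors were more often lower than higher in both overexpressing lines. This list and those that follow were chosen with earlier results of these data known. Their counts therefore describe the listed genes and are no test of a group. Over all genes, 28.2% fell and 29.2% rose in Flag/HA-ZC3H7A and 25.4% fell and 28.9% rose in Flag/HA-ZC3H7B. Of 38 tested ligands and latent TGF-beta genes, 23 fell and 4 rose in Flag/HA-ZC3H7A, and 24 fell and 3 rose in Flag/HA-ZC3H7B, with medians of -0.32 and -0.37. LAMA4, a laminin alpha chain, fell to 5935 ± 173 normalized counts in Flag/HA-ZC3H7A and 6795 ± 436 in Flag/HA-ZC3H7B, against 14434 ± 389 in Flag/HA-control. LAMB2, a laminin beta chain, fell by 1.50 on the log2 scale in Flag/HA-ZC3H7A. EDIL3, a secreted ligand of ITGAV receptors, fell to 567 ± 20.4 in Flag/HA-ZC3H7B, against 1460.0 ± 25.3 in Flag/HA-control. FBN1, the microfibril protein fibrillin, went the other way, at 2279 ± 119.6 in Flag/HA-ZC3H7A and 3656 ± 208 in Flag/HA-ZC3H7B, against 1859.8 ± 74.1 in Flag/HA-control. Of 41 tested ligand genes, 10 fell and 8 rose in the libraries labelled ZC3H7A/B-DD, where 13.5% of all genes fell and 11% rose. Without Parental replicate 3, 16 fell and 8 rose, where 17.4% and 15.7% of all genes did. FBN1 was at 3921 ± 339.9, against 1477 ± 136 in Parental (log2 1.41, and 1.33 without that library), and LAMB1 at 11624 ± 136, against 19328 ± 1865 in Parental (log2 -0.73, and -0.81 without it). Leaving out any other single library, 7 to 9 ligand genes fell and 5 to 7 rose. Of all genes, 6.78 to 11.4% fell and 4.54 to 7.79% rose in those fits.

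Of 14 genes for surface partners of integrins, 11 fell in each overexpressing line. Over all genes, 28.2% fell in Flag/HA-ZC3H7A and 25.4% in Flag/HA-ZC3H7B. Of the 14, 2 rose in Flag/HA-ZC3H7A and 1 in Flag/HA-ZC3H7B, where 29.2% and 28.9% of all genes did. CD47, a partner of ITGAV receptors, fell to 4132 ± 187 in Flag/HA-ZC3H7A and 3395 ± 50.4 in Flag/HA-ZC3H7B, against 5308 ± 8.36 in Flag/HA-control. BSG, the glycoprotein basigin, fell by 0.72 on the log2 scale in Flag/HA-ZC3H7A. Of 24 genes for folding, glycosylation and trafficking of integrins, 14 fell in each line, while 3 rose in Flag/HA-ZC3H7A and 2 in Flag/HA-ZC3H7B, against the same shares over all genes. UGGT1, the folding sensor of glycoproteins in the endoplasmic reticulum, fell by 0.53 and by 0.79. ERP29, an endoplasmic reticulum chaperone, fell to 1108 ± 106 in Flag/HA-ZC3H7A, against 2585 ± 171 in Flag/HA-control (log2 -1.22). It was at 2095 ± 14.7 in Flag/HA-ZC3H7B. In the libraries labelled ZC3H7A/B-DD, 5 of the 14 partners fell and 2 rose, and 6 of the 24 folding genes fell and 1 rose, where 13.5% of all genes fell and 11% rose. Leaving out Parental replicate 3, 7 partners fell and 2 rose, and 9 folding genes fell and 3 rose, where 17.4% of all genes fell and 15.7% rose. ERP29, an endoplasmic reticulum chaperone, was at 1299.5 ± 27.5, against 3179 ± 222 in Parental (log2 -1.29, and -1.35 without that library). Leaving out any other single library, 3 to 5 partners fell and 2 rose, and 4 to 6 folding genes fell and 0 rose. Of all genes, 6.78 to 11.4% fell and 4.54 to 7.79% rose in those fits.

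On the cytoplasmic side of integrin signalling, 18 of 45 activators and adaptors fell and 12 rose in Flag/HA-ZC3H7A, where 28.2% and 29.2% of all genes did, and 13 fell and 14 rose in Flag/HA-ZC3H7B, where 25.4% and 28.9% did. The medians were -0.05 and -0.01. SRC, a tyrosine kinase at adhesion sites, rose to 1119 ± 42.8 in Flag/HA-ZC3H7A and 790.1 ± 101 in Flag/HA-ZC3H7B, against 480.1 ± 18.8 in Flag/HA-control. PTK2, focal adhesion kinase, rose to 4369.6 ± 50.3 in Flag/HA-ZC3H7A, against 3013 ± 15.3 in Flag/HA-control. Of 46 tested activators and adaptors, 9 rose and 5 fell in the libraries labelled ZC3H7A/B-DD, where 11% and 13.5% of all genes did, and without Parental replicate 3, 17 rose and 6 fell, where 15.7% and 17.4% did. FERMT1, a kindlin that activates integrins, rose to 409.9 ± 7.62, against 209 ± 12.3 in Parental, while the small GTPases CDC42 and RAC1 fell to 2518 ± 74.9 and 1135 ± 92.5, against 4329 ± 100 and 1885 ± 107 in Parental. Their log2 changes without Parental replicate 3 were 0.97 for FERMT1, -0.76 for CDC42 and -0.72 for RAC1. Leaving out any other single library, 4 to 7 activators and adaptors rose and 3 to 4 fell. Of all genes, 4.54 to 7.79% rose and 6.78 to 11.4% fell in those fits.

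The subunits also varied together to different degrees across the 15 libraries, after centring each set on its own mean. ITGA1 and ITGAV had the highest pairwise Pearson correlation, 0.98, followed by ITGA2 and ITGA4 at 0.96. ITGAV and ITGA5 were at 0.13, and ITGB8 was at 0.12 or below with every other subunit. The closest genes by the same measure, among 14220 tested in both sets, were ZDHHC20 (0.993), SLC12A2 and ESYT2 for ITGAV, and LMAN1 (0.992), TMED5 and CPD for ITGA1. For ITGB1 they were DHRS7 (0.985), PPIC and MED14, and for ITGA5 NIPSNAP1 (0.975), GPR64 and EPHB2. LMAN1 had 13425 ± 185 normalized counts in Flag/HA-ZC3H7A and 5671 ± 211 in Flag/HA-ZC3H7B, against 17109 ± 89.7 in Flag/HA-control. ZDHHC20 had 1360.5 ± 66.5 and 674 ± 13.6, against 1980.2 ± 28.9 in Flag/HA-control. The nearest gene to ITGB8 reached only 0.734 (PLEKHF2). These correlations describe 15 libraries that share groups and depth, and carry no test.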

How the data were processed

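The authors deposited a table of normalized read counts per gene, a signal that never falls below 0, for 15 ribosome footprint libraries of HEK293 cells. Per the submitters' processing notes, DESeq2, HTSeq, STAR, Bowtie and cutadapt were used, with hg38 and hg19 as builds. Not given in the sources used here are the alignment build, the footprint lengths, the strand setting and the treatment of multi-mapping reads. Within a library every value was a whole multiple of 1 step, so dividing by that step recovered whole reads for 100% of values (within 0.001 reads). Counting error is the only error these depths measure.

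Of the 55773 names, 10735 had no reads, 28 had been turned into dates (0.173 to 0.285% of reads) and 2 were duplicated. Values were tested on log2(value + 1) with limma 3.58.1 (trend) in R 4.3.3, keeping genes that reached 10 in 3 or more libraries of the fit, at an adjusted p (Benjamini-Hochberg) under 0.05. Fold changes are on this scale, which understates changes of low genes. The 9 Flag/HA libraries shared 1 fit and the other 6 were fitted apart. The alternatives changed the pseudocount, the filter or the scaling, or used voom's precision weights, edgeR 4.0.16 and DESeq2 1.42.0 on the recovered reads, 1 fit for all 15 libraries, a replicate block and leaving out each library. Ratios and shares were compared by exact two-sided permutation over libraries. Codon content and kilobases come from the longest complete coding transcript in GENCODE 29, found for 18307 names.

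The members and lists were chosen with earlier results of these data known. Named are all 10 members, the targeted genes, up to 2 called genes per list, direction and comparison with the smallest p, from which the text takes a selection, and for each member the 3 genes with the most similar pattern. GPR64 and other symbols are printed as deposited. Fibroblast, blood cell and epithelial marker lists served as checks of the cell label. Antisense genes overlap exons of ITGA1, ITGA5, ITGA6, ITGAV and ITGB8. The processed pseudogene AC022133.1 overlaps 571 exon bases of ITGA1 on the same strand. ITGB1P1, a pseudogene at 15.8 to 59.0 normalized counts, was not found to overlap a member. All of these may share reads with members.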

Additional observations from a re-analysis of the deposited data

How the results depend on the processing

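Over 18 alternatives per comparison, ITGA1, ITGA2, ITGA5, ITGAV and ITGB1 kept their call in Flag/HA-ZC3H7A in all 18, ITGA6 in 17, ITGA4 in 15 and ITGB5 in 14. In Flag/HA-ZC3H7B, ITGA5 kept its call in 17 and the other called subunits in all 18. In the libraries labelled ZC3H7A/B-DD, ITGA2, ITGA4 and ITGA5 passed in all 18, ITGB5 in 10, ITGB1 in 9 and ITGA3 in 2. With 1 fit for 15 libraries, 5 subunits in place of 8 were called lower in Flag/HA-ZC3H7A. The share of all genes called lower in that fit is not given here. Genes called in ZC3H7A/B-DD against Parental numbered 4182, with 2452, 1895 and 2558 without Parental replicate 1, Parental replicate 2 and ZC3H7A/B-DD replicate 3, and 1895 to 5560 over all single libraries left out. The causes were not tested.

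Changes of sign concerned estimates near 0 that did not pass the test. ITGB8 turned to 0.053 in Flag/HA-ZC3H7A against Flag/HA-control with library total scaling, and ranged from -0.081 to 0.071 with 1 library left out. In Flag/HA-ZC3H7B against Flag/HA-control it turned to -0.11 with quantile scaling and to -0.0038 with DESeq2, and ranged from -0.043 to 0.11. Between Flag/HA-ZC3H7A and Flag/HA-ZC3H7B, leaving out 1 library gave -0.029 to 0.052 for ITGB1, -0.038 to 0.090 for ITGA3 and -0.10 to 0.030 for ITGB8. In ZC3H7A/B-DD against Parental it gave -0.23 to 0.012 for ITGA6, -0.18 to 0.013 for ITGA1 and -0.0026 to 0.18 for ITGB8.

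Deviations of same-numbered replicates from their group means had correlations of -0.057 to 0.092 in the Flag/HA set and -0.133 to 0.033 in the other. Such low values over all genes show no clear pairing by number, but cannot exclude a shared preparation. With a replicate block, 8, 8, 6 and 3 subunits were called in ZC3H7A, ZC3H7B, ZC3H7A against ZC3H7B and ZC3H7A/B-DD, and genes called numbered 9169, 8714, 6026 and 2992. edgeR and DESeq2 on recovered reads each called 8, 8, 6 and 5 subunits. Depth limits ITGB8 most, at 113 to 240 reads per library.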
